A study of Bos taurus with 28 samples.

Results

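Endoplasmic reticulum stress genes were followed in the liver of dairy cows, with ATF4 and CALR first among them. The set was defined by gene name, and its choice was not independent of these data: ATF4, CALR, HSPA5, HSP90B1, DDIT3, XBP1, PDIA3, PDIA4, ASNS and TRIB3, each taken where the platform annotation gives it a probe. Of these 10 genes, 9 had a probe (all but XBP1) and 8 had enough values for a test (all of the 9 but ASNS), among 8073 genes with a probe of 1 gene symbol and 6958 genes tested. Each of the 9 genes was read by 1 cDNA probe printed in 2 spots.

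Liver RNA came from 14 multiparous Holstein cows early after calving, 7 ketotic and 7 healthy, with 2 arrays per cow on which the dyes Cy3 and Cy5 were exchanged. All cows had passed a physical examination as healthy on day 4 and were then randomly assigned. The healthy group served as controls without feed restriction, and the ketotic group received 50 percent of its earlier feed from day 5 (day 4 in the sample labels) until clinical signs of ketosis appeared or day 14 was reached. The labels do not state on which day the liver was sampled, and they record no genotype or other agent. The second channel of every array held a common reference RNA pooled from cattle tissues, so each value is the log2 of liver over reference, centred on its array's median; a positive value means a ratio above that of the middle probe. The labels name no batches of arrays.

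The endoplasmic reticulum folds secreted and membrane proteins, a large task in hepatocytes, which release most plasma proteins. When unfolded proteins accumulate, the membrane sensors IRE1, PERK and ATF6 raise the output of chaperones, disulphide isomerases and degradation factors and lower general protein synthesis. PERK does so by phosphorylating the initiation factor eIF2, as do kinases that sense amino acid shortage, and this favours translation of ATF4, a transcription factor for amino acid synthesis, transport and stress genes. ATF4 is regulated to a large extent at translation, and the arrays measured RNA only.

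The liver label was checked against 13 measured hepatocyte markers such as albumin and apolipoproteins. Their median log2 ratio in a cow ran from 5.58 to 7.33 in ketotic and from 3.82 to 7.36 in healthy cows, and it was above 0 on all 28 arrays. The direction of the ratio is called likely, because it rests on the dyes in the titles together with these markers. For 1 ketotic array the labels contradict themselves, giving liver and reference an identical dye. Of 6958 genes, 865 (12.4%) were lower and 64 (0.92%) higher in ketotic cows by limma at an adjusted p of 0.05, and the median difference over all genes was -0.18. Healthy cow 7 stood apart: its median correlation with the other healthy cows was 0.408, against 0.870 to 0.887 for the others of its group. The main results that rest on it are given with and without it. The 2 arrays of healthy cow 7, with liver in Cy3 and in Cy5, gave unlike values for some genes of the set. These were -0.57 and -2.13 for PDIA3, -2.27 and -0.65 for HSPA5, 2.10 and 0.78 for PDIA4, and -0.79 and 0.30 for ATF4. The 2 arrays were close for DDIT3 (-0.05 and 0.13) and TRIB3 (0.84 and 0.76). Spots without a usable ratio made up 12.2 to 25.0% of a ketotic cow's spots and 9.19 to 16.6% of a healthy cow's. In bulk liver, fewer cells of a type and less RNA per cell cannot be told apart.

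ATF4, CALR and PDIA4 fell in the liver of ketotic cows, and none of the 8 tested genes rose. ATF4 was 2.06-fold, CALR 1.80-fold and PDIA4 1.61-fold lower. The chaperones HSPA5 and HSP90B1, the isomerase PDIA3 and the stress effectors DDIT3 and TRIB3 did not pass. Thus 3 of 8 genes (37.5%) were called lower, against 12.4% of all genes tested. ATF4 and CALR, after which the set was named, were among the 3, and PDIA4 was the only other. The choice of the set was not independent of these data, so its share is a description. The median difference of the 8 was -0.62 against -0.18 over all genes. All 8 differences were below 0, as were 67.2% of those of all genes. The groups of cows did not overlap for 1 of the 8 (ATF4), against 5.39% of all genes (375) separated in the same direction.

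**Figure D1:**
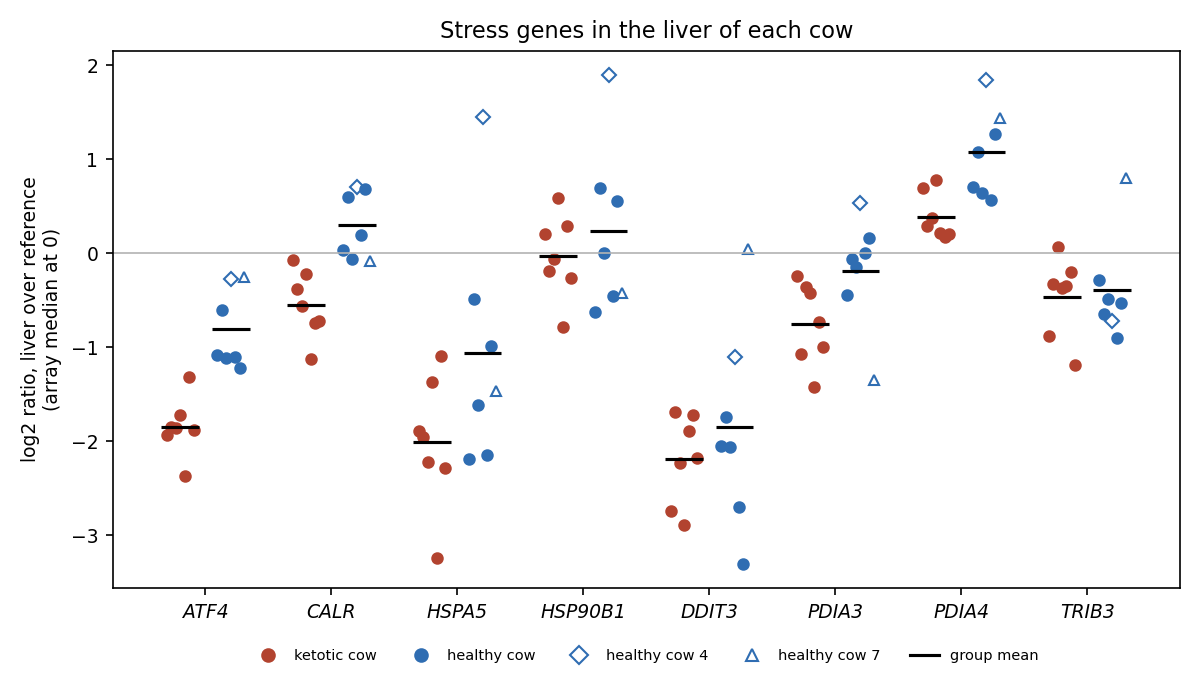
Log2 ratio of liver over reference (vertical axis, centred on the array median) for each cow, by gene and group; points are cows and bars group means, with healthy cow 4 as an open diamond and healthy cow 7 as an open triangle. The ketotic cows lie below all healthy cows for ATF4, while HSPA5 spreads from -2.19 to 1.45 among healthy cows alone.

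ATF4 is the transcription factor at the centre of the integrated stress response. Its log2 ratio in ketotic cows had a lowest value of -2.37, a median of -1.86 and a highest of -1.31. In healthy cows the lowest was -1.22, the median -1.08 and the highest -0.25. Every ketotic cow was below every healthy cow. Group means were -1.85 ± 0.312 (SD, n = 7) and -0.81 ± 0.421 (SD, n = 7), a difference of -1.04 (SE 0.201, 95% interval -1.47 to -0.61, limma adjusted p = 0.00563). Relative to the median of all genes the difference was -0.86. By p-value ATF4 stood at rank 121 of the 6958 genes. The difference was -0.95 when healthy cow 7 was left out (limma adjusted p = 0.00424).

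CALR encodes calreticulin, the soluble lectin chaperone that binds freshly glycosylated proteins and stores calcium in the endoplasmic reticulum. Ketotic cows had a lowest value of -1.13, a median of -0.56 and a highest of -0.068. Healthy cows had a lowest value of -0.077, a median of 0.20 and a highest of 0.71. The groups met only where ketotic cow 1 lay just above healthy cow 7, and 7 of 7 ketotic cows were below the healthy mean. The means of -0.55 ± 0.359 (SD, n = 7) and 0.30 ± 0.354 (SD, n = 7) differed by -0.84 (SE 0.195, 95% interval -1.26 to -0.43, limma adjusted p = 0.0126), or by -0.66 relative to the median of all genes. With healthy cow 7 left out it was -0.91 (limma adjusted p = 0.00555).

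Both calls were lost under 2 alternatives, while the differences stayed below 0. With each cow's share of unusable spots as a covariate, the difference was -0.72 for ATF4 (limma adjusted p = 0.0689) and -0.75 for CALR (limma adjusted p = 0.104), and 2.3% of all genes were called lower. With only the arrays that carried liver in Cy5, ATF4 was at -0.98 (limma adjusted p = 0.0784) and CALR at -0.83 (limma adjusted p = 0.0984), where 0.144% of 7633 genes were called lower.

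The dye orientations were also tested against each other. For ATF4 the difference was -1.10 with liver in Cy3 and -0.98 with liver in Cy5, and the test of one against the other gave 0.12 (SE 0.227, limma adjusted p = 0.956). In Cy3 the ketotic cows ranged from -2.61 to -1.48 and the healthy cows from -1.27 to -0.22, with no overlap. In Cy5 the ranges were -2.13 to -1.14 and -1.38 to 0.30, which overlap. For CALR the differences were -0.86 and -0.83, and the test of one against the other gave 0.038 (SE 0.233, limma adjusted p = 0.991). PDIA3 had the widest gap among the 8 genes, -0.79 in Cy3 against -0.34 in Cy5, and healthy cow 7 itself lay at -0.57 and -2.13. For PDIA3 the test of one orientation against the other gave 0.45 (SE 0.363, limma adjusted p = 0.865). In this limma fit 0 of 6958 genes passed, 380 genes (5.46%) had an unadjusted p under 0.05, and none of the 8 was among these.

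**Figure D2:**
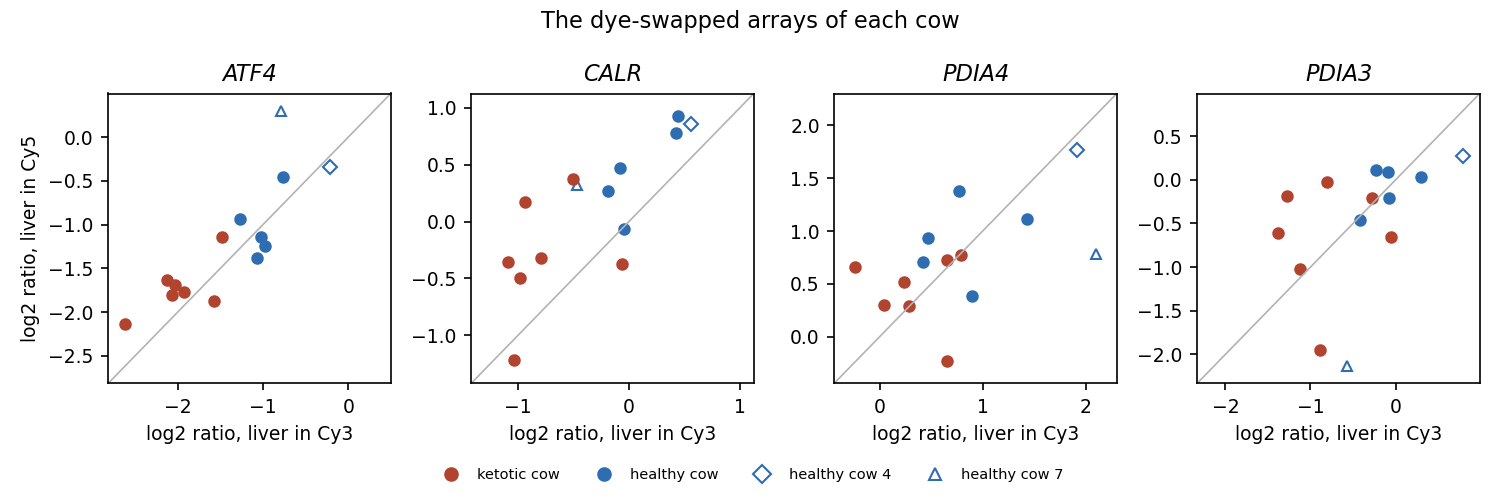
Log2 ratio of liver over reference on a cow's array with liver in Cy5 (vertical axis) against that on its array with liver in Cy3 (horizontal axis) for ATF4, CALR, PDIA4 and PDIA3; each point is 1 cow, the line marks equal values, and healthy cow 4 is an open diamond and healthy cow 7 an open triangle. For ATF4 the ketotic cows reach up to -1.48 in Cy3, where the healthy cows begin at -1.27, and in Cy5 healthy cow 7 is the highest at 0.30.

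Among the disulphide isomerases, PDIA4 and PDIA3 help proteins form correct disulphide bonds, and PDIA3 works together with calreticulin and calnexin on glycoproteins. PDIA4 ran from 0.17 through a median of 0.29 to 0.78 in ketotic cows and from 0.56 through 1.07 to 1.84 in healthy cows. The groups overlapped, although 7 of 7 ketotic cows were below the healthy mean. PDIA4 means were 0.39 ± 0.247 (SD, n = 7) and 1.08 ± 0.474 (SD, n = 7), a difference of -0.69 (SE 0.203, 95% interval -1.12 to -0.25, limma adjusted p = 0.0364). This call was close to the threshold: it was lost in 8 of 14 fits that left out 1 cow (ketotic cow 2, 3, 5, 6 or 7, or healthy cow 2, 4 or 6), where limma adjusted p ran from 0.0504 to 0.0711. Over all 14 such fits the PDIA4 difference stayed between -0.77 and -0.56. With the covariate its limma adjusted p was 0.191, and with arrays centred on the same 7426 probes it was 0.0921. In that centring ATF4 and CALR were the 2 of the 8 genes called lower, against 7.09% of all genes, and with liver in Cy3 alone they were again the 2 called lower, against 8.73% of 7432 genes.

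PDIA3 ran from -1.42 through a median of -0.73 to -0.24 in ketotic cows and from -1.35 through -0.058 to 0.53 in healthy cows. The lowest healthy value belonged to healthy cow 7 and lay below 6 of the 7 ketotic values. In that cow the array with liver in Cy5 gave -2.13 and the array with liver in Cy3 gave -0.57. The means differed by -0.56 (SE 0.264, 95% interval -1.12 to -0.0016, limma adjusted p = 0.174). Without healthy cow 7 the difference was -0.76 and passed (limma adjusted p = 0.0211), as 18.4% of 6878 genes did in the same direction; 4 of the 8 genes (ATF4, CALR, PDIA3 and PDIA4) were then called lower.

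HSPA5 encodes BiP, the abundant Hsp70 chaperone that holds the stress sensors inactive. It ran from -3.25 through a median of -1.95 to -1.09 in ketotic cows and from -2.19 through -1.46 to 1.45 in healthy cows. Its healthy cows spread over 3.64 log2 units, with healthy cow 4 at the top. The difference in HSPA5 was -0.94 (95% interval -1.98 to 0.094, limma adjusted p = 0.221), of a size like that of CALR but with a standard error of 0.489 against 0.195. Without healthy cow 4 the difference was -0.53.

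HSP90B1 encodes GRP94, the Hsp90 chaperone of the endoplasmic reticulum. It ran from -0.79 through a median of -0.061 to 0.59 in ketotic cows and from -0.62 through 0.00013 to 1.89 in healthy cows, whose range enclosed nearly all ketotic values. The difference was -0.26 (SE 0.346, limma adjusted p = 0.668), and 0.012 without healthy cow 4, whose value was the highest of all. Healthy cow 4 was also the highest cow for HSPA5, PDIA4, PDIA3 and CALR, and ketotic cow 5 the lowest for HSPA5, HSP90B1, PDIA3, CALR and ATF4; ketotic cow 5 also had the highest share of unusable spots.

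DDIT3 encodes CHOP, a transcription factor induced through ATF4 in prolonged stress and linked to cell death. It ran from -2.88 through a median of -2.18 to -1.68 in ketotic cows and from -3.30 through -2.05 to 0.041 in healthy cows. The highest value was that of healthy cow 7, and the remaining cows of both groups overlapped throughout. The DDIT3 difference of -0.34 (SE 0.406, limma adjusted p = 0.632) shrank to -0.029 without healthy cow 7.

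TRIB3 encodes a pseudokinase that ATF4 and CHOP induce and that dampens ATF4 activity. It ran from -1.18 through a median of -0.35 to 0.062 in ketotic cows and from -0.90 through -0.52 to 0.80 in healthy cows. Healthy cow 7 was again the highest, and only 2 of 7 ketotic cows were below the healthy mean. The difference was -0.071 (SE 0.253, 95% interval -0.61 to 0.47, limma adjusted p = 0.897), and 0.13 without healthy cow 7.

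ASNS encodes asparagine synthetase, a classical ATF4 target, and was not tested because only 3 ketotic and 6 healthy cows had a value on both arrays. The ketotic values were -1.69, -0.60 and 0.79, and the healthy values -1.66, -1.45, -0.78, -0.73, -0.14 and 1.47, so the groups overlapped. Of its 56 spots, 41 gave a usable ratio, and its duplicate spots differed by a median of 1.93. For the 8 tested genes 53 to 56 spots were usable, and duplicates differed by a median of 0.0885 to 0.315.

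**Figure D3:**
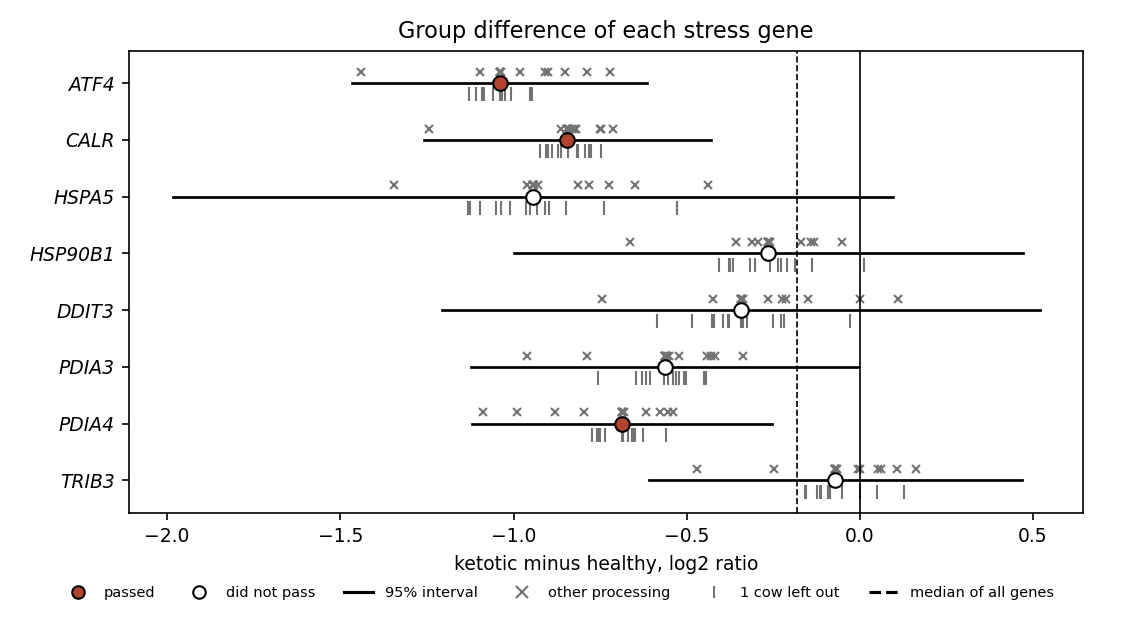
Ketotic minus healthy difference in log2 ratio (horizontal axis) for the 8 tested genes, with 95% intervals; filled red points passed limma at an adjusted p of 0.05 and white points did not, crosses are other ways of processing, small bars are fits without 1 cow, and the dashed line marks the median of all genes. ATF4 and CALR stay on the lower side under each processing shown, while the marks of TRIB3 fall on both sides of 0.

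Whether the genes moved by different amounts was tested on the difference between 2 genes within each cow, over 13 pairs with ATF4 or CALR as one of them. The centring of the array cancels in such a difference, but a change of its spread does not. The median absolute deviation of a cow's log2 ratios, averaged over its arrays, ran from 0.79 to 1.14 in ketotic and from 0.66 to 0.89 in healthy cows. With arrays scaled to 1 spread, the group difference was -0.79 for ATF4 (limma adjusted p = 0.0186) and -0.0006 for TRIB3. The ATF4 value minus the TRIB3 value had a mean of -1.38 ± 0.478 (SD, n = 7) among ketotic cows, against -0.41 ± 0.525 (SD, n = 7) among healthy ones; the probes have their own scales, so only the gap between groups is read. That gap was -0.97, and 7 of 7 ketotic cows lay under the healthy mean (two-sided exact permutation p = 0.0035 over 3432 splits, 0.0455 adjusted over the 13 pairs). Thus ATF4 was lower relative to TRIB3, and this was the only pair that passed with all cows.

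ATF4 and CALR differed from each other by -0.19 (exact permutation p = 0.456, adjusted 0.539), and by -0.038 without healthy cow 7 (exact permutation p = 0.868). ATF4 differed from HSPA5 by -0.094 (exact permutation p = 0.846, adjusted 0.846), and by 0.066 without that cow (exact permutation p = 0.895). The gap of ATF4 to HSP90B1 was -0.77 (exact permutation p = 0.0367, adjusted 0.189), and that to DDIT3 -0.70 (exact permutation p = 0.0728, adjusted 0.189). The gap of CALR to TRIB3 was -0.77 (exact permutation p = 0.0647, adjusted 0.189). When healthy cow 7 was left out, 3 pairs passed: ATF4 with TRIB3 at -1.07 (exact permutation, adjusted p = 0.0303), ATF4 with DDIT3 at -0.92 and CALR with TRIB3 at -1.04 (both 0.0429 by the adjusted exact permutation test).

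Within the groups, cows that were higher in ATF4 were also higher in HSPA5. Over 14 cows, with each group's mean removed, Pearson's r was 0.71 (permutation p = 0.00577, adjusted 0.0404 over 7 genes) and Spearman's rho 0.63 (permutation p = 0.0238, adjusted 0.0994). Leaving out healthy cow 7 and ketotic cow 6, farthest from the median in ATF4, r was 0.88. Leaving out healthy cow 4 and ketotic cow 5 instead, farthest from the median in HSPA5, r was 0.55. Without healthy cow 7 alone r was 0.88 (permutation p = 0.00068, adjusted 0.00476), with rho at 0.85 (permutation p = 0.00148, adjusted 0.0104). HSP90B1 then passed too, with r at 0.77 (permutation p = 0.00312, adjusted 0.0109) and rho at 0.75 (permutation p = 0.00766, adjusted 0.0268), against an r of 0.52 (adjusted permutation p = 0.166) over 14 cows. With healthy cows 4 and 7 and ketotic cow 6 left out, r with ATF4 was 0.75 for HSPA5 and 0.63 for HSP90B1. DDIT3 reached an r of 0.67 with ATF4 over 14 cows (adjusted permutation p = 0.0542) and 0.54 without healthy cow 7. ATF4 with CALR gave an r of 0.20 over 14 cows (permutation p = 0.491) and 0.43 without healthy cow 7 (permutation p = 0.162). ATF4 with TRIB3 gave 0.36 (permutation p = 0.264) and 0.0095 (permutation p = 0.976). PDIA3 gave -0.012 and 0.50, and PDIA4 0.55 and 0.48, none of which passed after adjustment.

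HSPA5 and HSP90B1 formed the closest pair. Over 14 cows r was 0.96 and rho 0.97, each with a permutation p of 1e-05, the smallest that 100000 permutations can give; without healthy cow 4 and ketotic cow 5 r was 0.91. This family of 7 correlations was added after the data had been seen. Of 5239 genes measured in all cows, HSP90B1 ranked first in its correlation with HSPA5, where the median gene had an r of 0.059. PDIA4 had an r of 0.73 with HSPA5 (permutation p = 0.00893, adjusted 0.0156) and CALR 0.65 (permutation p = 0.00799, adjusted 0.0156), and without healthy cow 4 and ketotic cow 5 these were 0.52 and 0.52. DDIT3 and TRIB3 stood at 0.19 and -0.13. Cows on 1 kind of array share its noise and its reference, so correlations between probes include both.

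**Figure D4:**
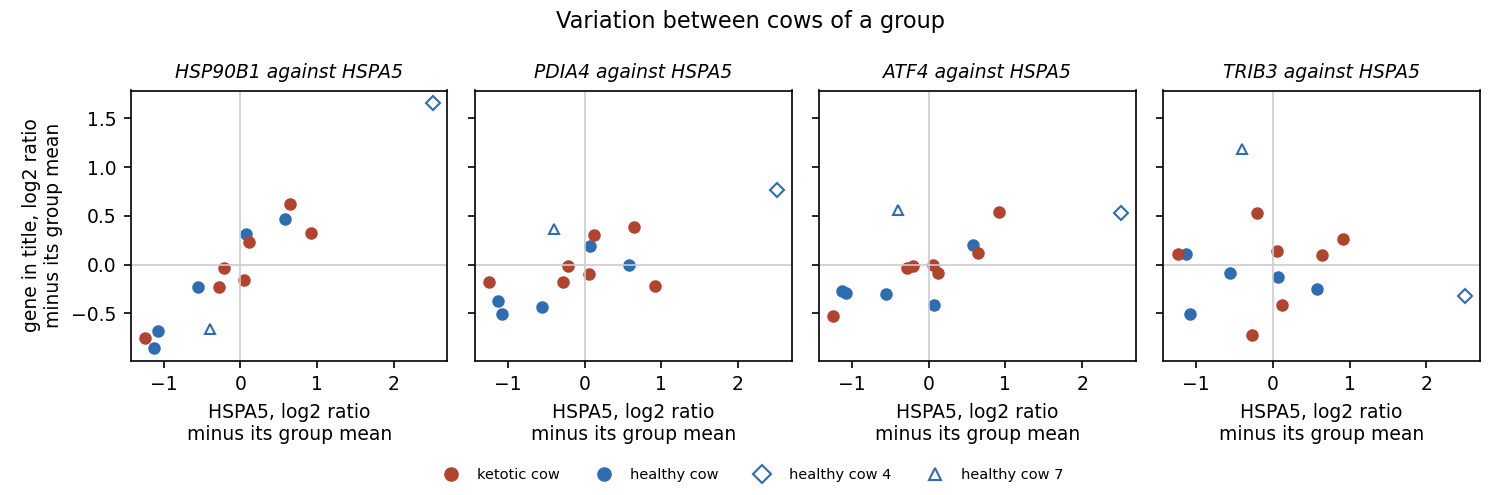
Group-centred log2 ratio of HSP90B1, PDIA4, ATF4 and TRIB3 (vertical axes) against that of HSPA5 (horizontal axis) for 14 cows, with healthy cow 4 as an open diamond and healthy cow 7 as an open triangle. HSP90B1 follows HSPA5 along a line with an r of 0.96, and TRIB3, with an r of -0.13, does not.

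The genes whose variation between cows was most like that of ATF4, over 13 cows without healthy cow 7 and with the group means removed, were GAR1 (r 0.92), DRG1 (0.92), IVNS1ABP (0.92), CEBPZ (0.91) and AHSA1 (0.91). Over all 14 cows the same 5 had an r of 0.47, 0.85, 0.67, 0.077 and 0.83. AHSA1 activates the Hsp90 ATPase, and GAR1 belongs to the particles that modify ribosomal RNA. DRG1 and AHSA1 also fell in ketotic cows (limma adjusted p = 0.0363 and 0.0411), and the other 3 did not pass. HSPA5 stood at rank 18 of the 5670 genes compared with ATF4 over these 13 cows and at rank 143 of 5239 over all 14.

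For CALR the most similar genes over the same 13 cows were NEK9 (r 0.90), PDIA6 (0.89), FKBP11 (0.84), PDHA1 (0.83) and TP53BP1 (0.83), with 0.91, 0.90, 0.83, 0.78 and 0.63 over all 14. PDIA6 is a disulphide isomerase and FKBP11 a prolyl isomerase, both of the endoplasmic reticulum. FKBP11 fell (limma adjusted p = 0.0193), and the other 4 did not pass. Over the 13 cows PDIA4 stood at rank 13, PDIA3 at 22 and HSP90B1 at 38. Over all 14 cows HSP90B1 stood at rank 14, PDIA3 at 18 and PDIA4 at 182, so their order turned with healthy cow 7.

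Further genes of the pathway were read from 6 lists. In the list of folding factors and the calnexin cycle, 13 of 38 tested genes (34.2%) fell and none rose, with a median difference of -0.52, against 12.4% lower, 0.92% higher and a median of -0.18 over all genes. TMX2, a thioredoxin-related membrane protein, fell by 1.28 on the log2 scale (2.42-fold, limma adjusted p = 0.0025). The 3 KDEL receptors, which return chaperones with a retention signal from the Golgi, fell together: KDELR1 by 0.84 (adjusted p = 0.00303), KDELR3 by 1.08 (adjusted p = 0.0139, 6 healthy cows) and KDELR2 by 0.93 (adjusted p = 0.0165), all by limma. For KDELR1 the ketotic cows lay between -1.52 and -1.20 and the healthy cows between -0.81 and -0.046, with no overlap. Glucosidase I (MOGS) fell by 1.05 and the catalytic subunit of glucosidase II (GANAB) by 0.53; these enzymes trim new glycans before calreticulin binds. The oxidoreductases PDIA5 and ERP44 fell by 1.26 (6 ketotic cows) and 1.19 (6 healthy cows).

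In the list of protein entry and N-glycosylation, 9 of 36 genes (25%, against 12.4% of all genes) fell and none rose, with a median of -0.48. OSTC and DAD1, subunits of the oligosaccharyltransferase, fell by 1.37 (limma adjusted p = 0.00563) and 1.02 (limma adjusted p = 0.0025), and its catalytic subunit STT3A by 0.70. SEC61A1 and SEC61B of the translocation channel fell by 0.72 and 0.80, and SRP14 of the signal recognition particle by 1.08. GET3 and GET1, which insert tail-anchored proteins, fell by 0.96 and 0.72; GET1 did not pass without healthy cow 1 or healthy cow 2 (limma adjusted p from 0.0506 to 0.0533). In the list of degradation from the endoplasmic reticulum, 4 of 22 (18.2%) fell and none rose, with a median of -0.38; this share is near the 12.4% of all genes. They were the channel protein DERL1 (-0.64), the lectin OS9 (-0.78), the extracting ATPase VCP (-0.79) and the ubiquitin-conjugating enzyme UBE2J2 (-0.74), the last with an adjusted p of 0.0527 by limma without healthy cow 6.

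Among 24 tested targets of ATF4 and the amino acid response, 2 fell (8.33%) and none rose, with a median of -0.44; the share called was below that of all genes (12.4%). Both act in serine synthesis. PSAT1 ran from -1.30 through -0.72 to 0.16 in ketotic and from -0.056 through 0.71 to 1.84 in healthy cows, and fell by 1.43 (2.69-fold, limma adjusted p = 0.0109). PHGDH, the first enzyme of that pathway, fell by 0.99 (limma adjusted p = 0.0169). Of 11 cytosolic aminoacyl-tRNA synthetases that ATF4 is known to raise, 3 fell (27.3%, against 12.4% of all genes), none rose and all 11 differences were below 0, with a median of -0.58. YARS1 fell by 0.97 (limma adjusted p = 0.0114). NARS1 (-0.70, limma adjusted p = 0.0329) and TARS1 (-0.69, limma adjusted p = 0.0462) were near the threshold. NARS1 was lost without any 1 of ketotic cows 2, 3 and 7 and healthy cows 1, 2, 4, 5 and 6, and TARS1 without any 1 of ketotic cows 1, 2, 3, 5, 6 and 7 and healthy cows 1, 2, 3 and 4, with limma adjusted p up to 0.0671 and 0.0856.

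Of 18 stress sensors and factors that act on eIF2, 1 fell (5.56%, against 12.4% of all genes) and 1 rose (against 0.92% of all genes). Their median was -0.17, close to the -0.18 of all genes. EIF2B5, the catalytic subunit of the exchange factor that eIF2 phosphorylation inhibits, rose by 0.51 (limma adjusted p = 0.0365). PPP1CB, a catalytic subunit of protein phosphatase 1, fell by 0.86 (limma adjusted p = 0.0401). Neither call held in every fit without 1 cow: EIF2B5 was lost without any 1 of ketotic cows 2 to 5 and healthy cows 3, 5 and 6, and PPP1CB without any 1 of ketotic cows 1, 2, 4, 5, 6 and 7 and healthy cows 1 to 3, with limma adjusted p up to 0.0758 and 0.0765.

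Without healthy cow 7 the counts that fell became 18 of the folding list, 18 of the entry and glycosylation list, 7 of the degradation list, 2 of the ATF4 target list, 4 of the synthetases and 2 of the sensors, while 18.4% of all genes were called lower. With the covariate for unusable spots they became 3, 1, 0, 1, 0 and 0, while 2.3% of all genes were called lower. With liver in Cy5 alone they were 0 in each list, while 0.144% of all genes were called lower. The lists were chosen with earlier results of these data known, and their counts are descriptions.

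**Figure D5:**
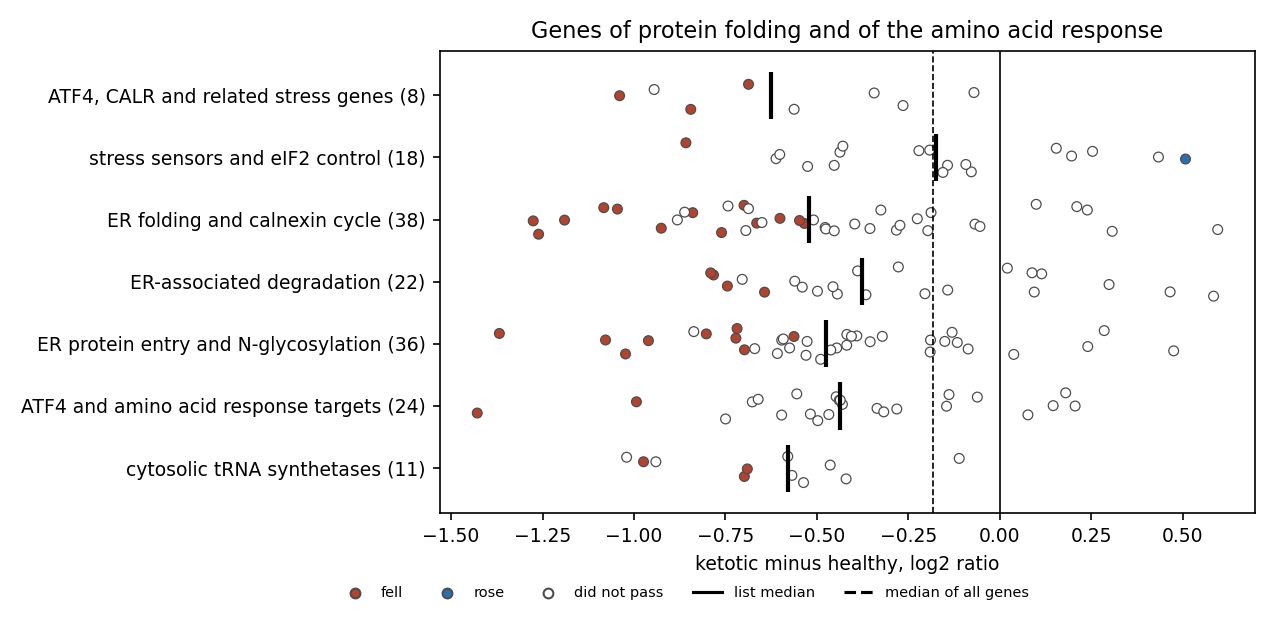
Ketotic minus healthy difference in log2 ratio (horizontal axis) for each tested gene of the stress set (top row) and the pathway lists, with the number tested in brackets; red points fell and blue points rose by limma at an adjusted p of 0.05, white points did not pass, black bars are list medians and the dashed line is the median of all genes at -0.18. The folding list has 13 red points of 38 and the list of stress sensors 1 red and 1 blue of 18.

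Some genes listed as markers of other liver cell types passed as well. Their counts are to be read against the 12.4% of all genes called lower and the 0.92% called higher. In a list of a few genes, 1 call lower is near that share. Of 8 Kupffer cell and macrophage markers 3 fell (CD74, LAPTM5 and AIF1), with a median difference of -0.49 against -0.18 over all genes. Their median level in a cow ran from 0.79 to 3.09 in ketotic and from 0.58 to 3.49 in healthy cows. The lowest healthy level was that of healthy cow 7, and the next was 2.21. Without healthy cow 7, 4 of the 8 markers fell, while 18.4% of all genes were called lower. Of 5 genes listed as bile duct markers 1 fell (KRT8), with a median difference of -0.54. KRT18, KRT19, SPP1 and EPCAM did not pass (limma adjusted p = 0.113, 0.452, 0.543 and 0.954). Median levels of the 5 genes were -2.36 to -1.44 in ketotic and -1.87 to -0.55 in healthy cows. Among the healthy cows, healthy cow 7 was highest and the next was at -0.90. None of 8 stellate cell markers passed, and none of 5 endothelial markers, whose median difference was -0.10. For the stellate markers the median difference was -0.91, against -0.62 for the stress set, and 6 of the 8 were below 0. Without healthy cow 7 these medians were -0.58 and -0.69, and 1 stellate marker fell. Stellate levels were -3.84 to -2.37 in ketotic and -3.32 to 0.41 in healthy cows, where healthy cow 7 was highest and the next was at -0.70. Among small lists, 1 of 2 plasma cell markers fell (SDC1), while MZB1 did not pass (limma adjusted p = 0.977). Of 3 lymphocyte markers 1 fell and 1 rose, and 1 of 2 neutrophil markers rose. None of 2 blood markers or of 3 genes of other tissues passed. Whether the KRT8 and SDC1 values came from these cell types or from hepatocytes was not tested. Of the 13 hepatocyte markers 2 rose and none fell, with a median difference of 0.63 and 2 of the 13 below 0. Without healthy cow 7, 2 rose and 1 fell, with a median of 0.24. None passed with arrays scaled to 1 spread, where the median was -0.43, or after quantile normalisation, where it was 0.17. The part of these cell types in the differences of ATF4, CALR and the related genes was not tested.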

How the data were processed

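The authors deposited 1 log2 ratio of the dye channels per spot (27648 spots, 28 arrays); scanning and normalization are not described in the labels or file headers. Array medians of the deposited log2 values ran from -1.06 to 2.12, so they had not been centred. Values at a ceiling of 16.61 (6245, the log2 of 100000) were read as missing with 103458 empty cells; 5777 zeros were kept. The sign was turned on arrays that carried liver in Cy3, the 2 spots of a probe averaged (13824 probes) and each array centred on its median. A cow's value is the mean of its 2 arrays, and a probe needed values in 5 cows of each group (10420 probes). Probes of a gene were averaged. Of 13824 probes, 8645 had 1 symbol, 105 several and 5074 none in the platform annotation; 8620 were updated through a gene table of assembly ARS-UCD2.0.

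Groups were compared with limma 3.58.1 in R 4.3.3 (lmFit, eBayes, two-sided, Benjamini-Hochberg over 6958 genes, threshold 0.05), which was tested on simulated data. Pairs of genes were compared by exact permutation, and correlations by 100000 permutations within groups. Replicate numbers only name cows. Named were all measured genes of the set, up to 8 passing genes of each list by p-value, and the 5 genes most correlated with ATF4 and with CALR. The members and lists were chosen with earlier results of these data known. Alternatives changed the centring, scaling, missing values, dye, cow minimum, fit, weights and covariate, or left out 1 cow.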

Additional observations from a re-analysis of the deposited data

Results flagged for a closer look

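The tested genes of the set and the named genes of the lists gave 70 groups of 6 or 7 cows. Of the groups, 5 had 1 cow far from the others by Dixon's criterion, which chance gives for about 1 in 20 groups. Of these 5, 4 were healthy cow 7. TRIB3 stood at 0.80 in healthy cow 7, with the nearest healthy cow at -0.28. KDELR2 stood at 2.09 against 0.86, GET3 at 1.87 against 0.50, and PPP1CB at 0.59 against -0.80 in the same cow. Without healthy cow 7 the difference was -0.73 for KDELR2, -0.72 for GET3 and -0.62 for PPP1CB, and each was still called lower by limma. OSTC stood at -2.31 in ketotic cow 5, with the nearest ketotic cow at -1.21.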

How the results depend on the processing

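Of 6958 genes, 929 passed as reported. The count was 2477 with the values as deposited, 616 with arrays centred on the 7426 probes measured on all arrays (493 lower, 123 higher, so 80% lower against 93.1%), 550 with arrays scaled to 1 spread, 562 after quantile normalisation, 1409 with array weights, 12 with liver in Cy5 alone, 168 with the share of unusable spots as a covariate, and 652 to 1368 when 1 cow was left out, the highest without healthy cow 7. These causes were not tested. Centring on common probes moved the median difference over all genes from -0.18 to -0.053, and the deposited scale moved it to -0.58. Of the 8 genes, 3 passed as reported, 0 with liver in Cy5 alone and 0 with the covariate, and 2 to 4 without 1 cow. Only 2 of them (ATF4 and CALR) passed with common probes, liver in Cy3 alone, array weights, or 1 array of a cow as enough. With the values as deposited 4 passed. ATF4 did not pass with liver in Cy5 alone (-0.98) or with the covariate (-0.72), and neither did CALR (-0.83 and -0.75); both passed under each other alternative run, and without 1 cow ATF4 ranged from -1.13 to -0.95 and CALR from -0.92 to -0.75. Differences that had not passed changed sign for TRIB3 with common probes (0.061), liver in Cy3 alone (0.11), array weights (0.053), the covariate (0.16) and without 1 cow (from -0.16 to 0.13), for DDIT3 with the covariate (0.11), and for HSP90B1 without 1 cow (from -0.41 to 0.012). Without healthy cow 7, 3 pairs of genes passed in place of 1, the gap of ATF4 to HSPA5 changed sign from -0.094 to 0.066, and 2 correlations with ATF4 passed in place of 1. The latter choice and the alternatives for the lists were made after seeing the data. Of the 27 named genes of the lists, 21 kept their call in each fit without 1 cow, 5 kept it with the covariate (TMX2, KDELR1, MOGS, DAD1 and PSAT1) and 0 with liver in Cy5 alone; none changed sign. No paired analysis was possible because the replicate numbers only name the cows. Scanner intensities were not used here, so signal over background could not be given for any spot.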

Other observations

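The genes whose values between cows were most like those of HSPA5, over 14 cows with the group means removed, were looked up after the data had been seen. After HSP90B1 they were MANF (r 0.93), JARID2 (0.90), RARS1 (0.87) and ATP2A2 (0.85). MANF is a secreted factor of the endoplasmic reticulum stress response, and ATP2A2 encodes the pump that fills the reticulum with calcium, which calreticulin stores. Without healthy cow 7 the r of these 4 was 0.95, 0.92, 0.87 and 0.85. ATP2A2 fell in ketotic cows by 0.85 (limma adjusted p = 0.0466).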
